A study of Mus musculus with 9 samples.

Results

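Dpep1, Galnt15, Sult1a1, Trim63, F13a1, Vegfd, Ampd3 and Map3k6 stood higher, and Cndp1 lower, in mouse Reissner's membrane kept with dexamethasone than in membrane kept without it. These 9 genes, of 18193 with a probe set of their own, were chosen by the size of their rise or fall with dexamethasone. Genes counted as classic targets of the glucocorticoid receptor were set apart, although Trim63 too is known to be raised by glucocorticoids in muscle. Since it chose the 9 genes, the difference between dexamethasone and incubated arrays is given below as a description, with no test. They are measured by 13 probe sets, all of which passed the filter on low signals.

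Reissner's membrane is the thin partition between endolymph and perilymph in the cochlea, with an epithelium on one face and a mesothelial layer on the other. Membranes of adult mice were treated as explants with dexamethasone at 100 nM for 24 h (dexamethasone), kept for 24 h in its absence (incubated) or taken straight to RNA extraction (fresh). Each group had 3 arrays, lettered A to C, hybridized with RNA of pooled membranes, and the design text gives 3 chips per biological sample, so each p-value reflects array-to-array spread alone, and that spread may be technical. The dose is typed in mM on the treatment labels of dexamethasone arrays B and C, and in nM for array A and in the design text.

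Glucocorticoids such as dexamethasone bind a nuclear receptor that moves to DNA and switches genes on, often at a palindrome of short repeats, and lowers many inflammatory genes. The inner ear expresses the receptor, and steroids are used in hearing disorders. The 9 genes have little in common by role. Dpep1 and Cndp1 encode dipeptidases, Galnt15, Sult1a1 and Ampd3 encode enzymes that act on proteins, phenols and a nucleotide, Trim63 encodes a ubiquitin ligase, F13a1 and Vegfd encode secreted proteins and Map3k6 encodes a stress-activated kinase.

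Promoter windows from RefSeq (GRCm38.p6, 250 bases before to 50 after a gene's start) were at hand for 8 of the 9 genes, in 11 windows. Those of Trim63, Map3k6 and Sult1a1 are shown because they held the letters of a receptor motif, and capitals mark every match to a searched motif. The motifs, searched on both strands, were the receptor palindrome, GNACA and TGTNC with 3 bases of any kind between them, which reads the same on either strand, the single repeat AGAACA, and TGTTTAC, a core bound by FOXO factors.
Trim63, chr4:134314870-134315169, plus strand: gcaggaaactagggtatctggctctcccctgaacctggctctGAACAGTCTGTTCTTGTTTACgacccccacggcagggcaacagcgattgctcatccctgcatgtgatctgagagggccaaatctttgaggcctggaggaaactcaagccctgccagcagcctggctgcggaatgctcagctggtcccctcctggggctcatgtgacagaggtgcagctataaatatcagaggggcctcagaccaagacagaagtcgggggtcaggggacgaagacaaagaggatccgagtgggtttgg
Map3k6, chr4:133240568-133240867, plus strand: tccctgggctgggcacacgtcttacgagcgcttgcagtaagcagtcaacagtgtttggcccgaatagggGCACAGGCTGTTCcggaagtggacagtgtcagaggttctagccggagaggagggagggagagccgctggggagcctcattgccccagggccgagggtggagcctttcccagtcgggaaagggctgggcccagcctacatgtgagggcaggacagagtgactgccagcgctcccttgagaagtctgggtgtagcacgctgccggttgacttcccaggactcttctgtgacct
Sult1a1, chr7:126676369-126676668, minus strand: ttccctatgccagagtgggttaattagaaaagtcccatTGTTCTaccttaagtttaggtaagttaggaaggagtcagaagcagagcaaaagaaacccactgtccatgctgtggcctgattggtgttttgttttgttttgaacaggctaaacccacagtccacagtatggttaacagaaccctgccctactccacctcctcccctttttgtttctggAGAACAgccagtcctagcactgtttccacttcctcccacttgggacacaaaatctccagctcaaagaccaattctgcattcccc

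The motifs were chosen with the Trim63 sequence in view, so the Trim63 matches were fixed in advance and nothing is read from them. The palindrome was found in the windows of 2 members, Trim63 and Map3k6, and in 0.475% of all 32851 promoter windows. In Trim63 it started 208 bases before the gene's start. The single repeat on the opposite strand overlapped its right end, and the FOXO core began directly after that repeat. This arrangement is known from studies of the mouse Trim63 promoter in muscle. Sult1a1 had 2 single repeats, one on each strand, and 19% of all windows held at least 1. The FOXO core was in 3.65% of all windows. The other windows of the members held none of these letters, and a match describes the sequence alone.

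All 9 arrays had a mean signal of 500 after trimming, by the authors' scaling, and arrays of one group correlated across probe sets with a Pearson's r of at least 0.984 on the log2 scale. A signal of 200 served as a working floor, since no detection calls were used. Of 12 classic receptor targets, 11 were called higher and 1 lower with dexamethasone, against 50.9% of all 10242 tested genes called in either direction, 22.3% higher and 28.7% lower. Zbtb16 averaged 6088 ± 32.9 on dexamethasone arrays and 630 ± 82.2 on incubated arrays (SD, n = 3 each), and Fkbp5 averaged 1389 ± 122 on dexamethasone arrays and 325 ± 41.1 on incubated arrays. All 8 epithelial markers reached the floor in every group. Their summed signal was 82979 to 86924 on dexamethasone arrays, 71577 to 73650 on incubated arrays and 29201 to 30405 on fresh arrays. Of 6 mesothelial markers, Upk3b, Wt1, Lrrn4 and Muc16 stayed under the floor in all groups. Msln averaged 941 ± 24.3 on dexamethasone arrays, 1203 ± 37.1 on incubated arrays and 45.1 ± 10.7 on fresh arrays, while Upk1b reached the floor on at least 1 fresh array and on no other array. The summed signal of 8 fibrocyte markers was 4201 to 4533 on incubated arrays, against 67453 to 69137 on fresh arrays. Whether RNA from adjoining tissue was present in fresh membranes was not tested. In such bulk samples, fewer cells of a type and less RNA per cell cannot be told apart.

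By size of the difference with dexamethasone, 6 of the members ranked second to eighth among all tested genes that were higher. Galnt15 and Dpep1 came directly behind Zbtb16. Galnt15, Sult1a1, Vegfd, Trim63 and F13a1 were under the floor on all incubated arrays, so their places rest on the pseudocount of 32. The difference for Vegfd was 3.46 with a pseudocount of 1, above the 2.98 of Galnt15, and 1.60 with a pseudocount of 100. The acute-phase gene Saa3 (2.69 on the log2 scale) stood between Dpep1 and Sult1a1, and F13a1, in place 8, was followed by Epyc (2.28), the gene of a small proteoglycan. Ampd3 ranked 37 and Map3k6 ranked 83, so genes with larger differences lay outside the selection. Cndp1 was sixth among genes that were lower, after the neutrophil granule gene Camp (-3.11) and before the interferon-induced gene Usp18 (-3.00).

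**Figure D1:**
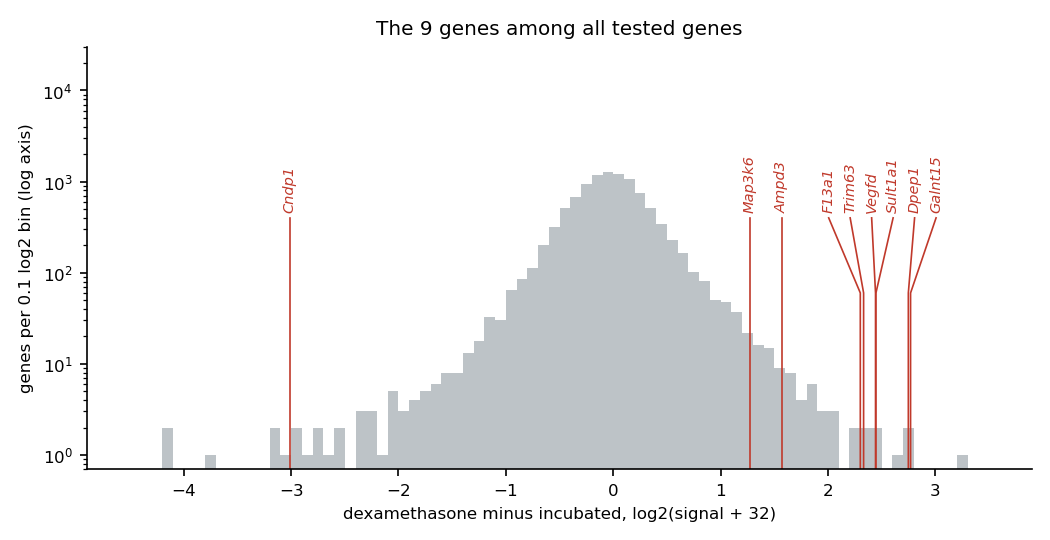
Histogram of the difference of group means, dexamethasone minus incubated, in log2(signal + 32), over 10242 genes (log vertical axis), with red lines at the 9 genes. Cndp1 lies at -3.01 and the other members lie between 1.27 and 2.77.

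The members came in 3 patterns over the groups. Dpep1, Galnt15, Ampd3 and Map3k6 were highest with dexamethasone, and their fresh and incubated means lay closer to each other than to the dexamethasone mean. Of these, Galnt15 and Ampd3 were also called higher after culture alone. Sult1a1, Trim63, F13a1 and, by 1 probe set, Vegfd were lower after culture and higher again with dexamethasone. Cndp1 was lower after culture and lower still with dexamethasone. In the comparison of incubated with fresh arrays, which did not choose the members but shares the incubated arrays with the one that did, 2 members were called higher, 5 lower and 2 did not pass the test. The share of all tested genes called in that comparison was 76.8%, with 36% higher and 40.7% lower (of all probe sets 75.1%, 35% and 40.1%). Of the 7 members called, Galnt15 and Vegfd had both group means under the floor, so no fold is given for them. Dexamethasone against fresh arrays gave 7 members higher and 2 lower, where 78.1% of all tested genes were called, 35.4% higher and 42.7% lower (of all probe sets 76.2%, 37.8% and 38.4%). That comparison shares the dexamethasone arrays with the choice of the members. The probe sets that stand for 2 of them, Galnt15 and Vegfd, reached the floor on the dexamethasone arrays alone, so they entered the test only through the group where they are high and had to differ there. The same holds for Map3k6, which reached the floor on the 3 dexamethasone arrays, 1 incubated array and no fresh array. In the comparison that chose the members, 8 higher and 1 lower, 52.5% of all probe sets were called, 27.1% higher and 25.5% lower, and nothing is read from that. Each p below is the Benjamini-Hochberg adjusted p of limma's moderated test over all 18913 tested probe sets.

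**Figure D2:**
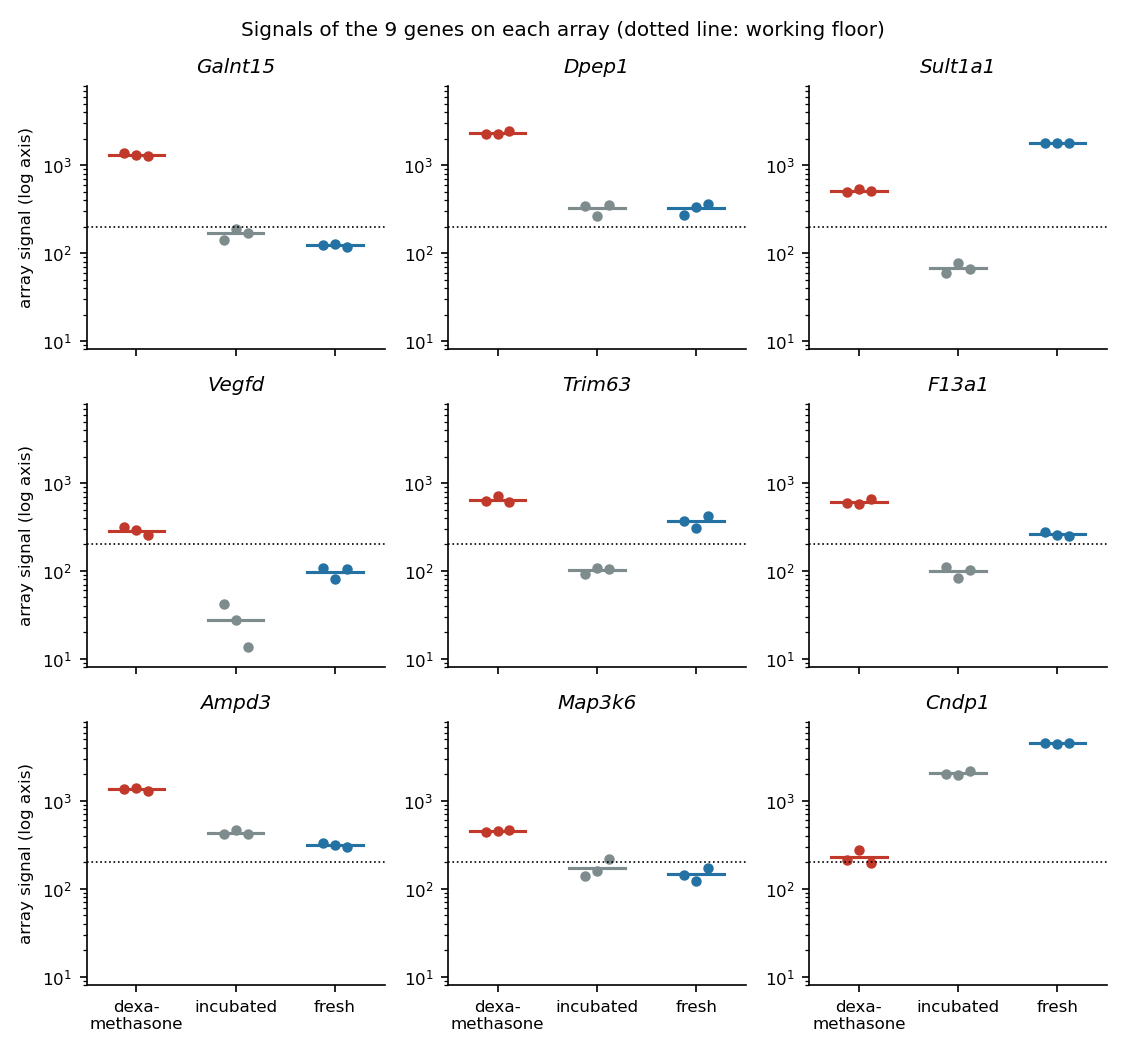
Signal of each of the 9 genes on each array (points, log axis), with the mean of each group of 3 (bars), by the probe set that stands for the gene, and the working floor of 200 (dotted). Sult1a1, Trim63, F13a1 and Vegfd are lowest on incubated arrays, and Cndp1 is lowest on dexamethasone arrays.

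Of the dipeptidases, Dpep1 encodes a membrane-anchored enzyme that cleaves cysteinylglycine, a product of glutathione breakdown, and converts leukotriene D4. Its brighter probe set gave 2274.8, 2271.8 and 2473.5 on dexamethasone arrays, against 347.7, 267.8 and 353.6 on incubated arrays and 270.1, 338.6 and 365.5 on fresh arrays. The 3 dexamethasone arrays lay 7.24-fold above the incubated mean without overlap, while incubated and fresh arrays overlapped. The difference between incubated and fresh arrays was -0.0066 ± 0.12 on the log2 scale (adjusted p = 0.961). Its sign turned with the scaling, and it passed as a rise with median centring (0.39, adjusted p = 0.00592) and with hybridization-control scaling (0.30, adjusted p = 0.0437). The dimmer probe set gave 555.7, 542.4 and 541.4 with dexamethasone, against 124.6, 88.2 and 93.6 on incubated arrays and 63.7, 78.5 and 74.0 on fresh arrays. By it incubated arrays lay above fresh arrays without overlap, all under the floor, and were called higher (0.36, adjusted p = 0.0226). Dexamethasone arrays stood 7.21-fold above fresh arrays by the brighter probe set (2.74 ± 0.12 on the log2 scale, adjusted p = 3.12e-10).

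Cndp1 encodes carnosine dipeptidase 1, which splits carnosine, a dipeptide of beta-alanine and histidine. It gave 209.7, 278.2 and 197.1 on dexamethasone arrays, against 2032.3, 1944.4 and 2186.5 on incubated arrays and 4543.9, 4490.0 and 4534.7 on fresh arrays. The 3 groups formed separate steps, with fresh arrays highest. The dexamethasone mean was 11.1% of the incubated mean, and 1 of the 3 dexamethasone arrays fell under the floor. The summed signal of 5 neutrophil markers stepped in the same order. It was 133 to 249 on dexamethasone arrays, 2762 to 2901 on incubated arrays and 13948 to 14979 on fresh arrays. Of the 5 markers, 4 were called lower with dexamethasone, and Elane did not pass (0.19), at signals under the floor in both groups. Summed signals of platelet, erythrocyte and neuron markers stepped in that order too. The part of these cell types in the Cndp1 values was not tested. Culture alone lowered Cndp1 2.20-fold (-1.13 ± 0.095, adjusted p = 2.28e-07). Dexamethasone arrays lay 19.8-fold below fresh arrays (-4.14, adjusted p = 1.28e-12). Its paralog Cndp2, the cytosolic form, was among the brighter probe sets, at 24813 ± 1799 with dexamethasone and 25113 ± 3018 on incubated arrays, and did not pass the test between them (-0.013 ± 0.081, adjusted p = 0.909). Quantile normalization (-0.20, adjusted p = 0.00369) and hybridization-control scaling (-0.50) both called Cndp2 lower, and its dimmer probe set was called lower in the fit as deposited (-0.15, adjusted p = 0.044).

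Galnt15 belongs to the family of transferases that attach the first sugar of mucin-type O-linked chains. Its brighter probe set gave 1385.0, 1320.5 and 1270.1 on dexamethasone arrays, against 142.7, 189.9 and 171.2 on incubated arrays and 123.4, 126.4 and 117.3 on fresh arrays. Only the dexamethasone arrays were above the floor, so the difference is at least 6.63-fold against either group. That bound sets the bright group's mean over 200, since all arrays of the dim group lay under it. The second probe set had the same order, with 397.8, 515.7 and 431.4 on dexamethasone arrays, against 48.1, 68.3 and 77.2 on incubated arrays. Incubated arrays were called above fresh arrays at signals under the floor (adjusted p = 0.00584).

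Sult1a1 encodes a cytosolic sulfotransferase that conjugates phenols and many drugs. It gave 492.5, 530.6 and 510.2 on dexamethasone arrays, against 59.7, 77.8 and 66.1 on incubated arrays and 1780.1, 1814.4 and 1772.7 on fresh arrays. Of the members it had the largest fall in culture, to 3.79% of the fresh mean. The fall was at least 8.95-fold (-4.19 ± 0.086 in the fit, adjusted p = 7.13e-13). With dexamethasone it was at least 2.56-fold above incubated arrays, and that level was 28.6% of the fresh mean, still 3.50-fold below it (-1.75, adjusted p = 1.24e-09). Markers of fibrocytes fell in culture as well, as given above, and had a summed signal of 5175 to 5371 with dexamethasone. Neuron markers summed to 493 to 529 on incubated arrays, against 17151 to 18182 on fresh arrays, and strial marginal cell markers summed to 5152 to 5308 on incubated arrays, against 24388 to 25683 on fresh arrays. Erythrocyte and neutrophil markers were also lower in culture. The part of these cell types in the Sult1a1 fall was not tested.

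Ampd3 encodes an AMP deaminase, which turns AMP into IMP. It gave 1352.0, 1410.8 and 1300.7 on dexamethasone arrays, against 421.4, 464.7 and 419.0 on incubated arrays and 333.3, 311.3 and 294.6 on fresh arrays. Every array was above the floor and the groups did not overlap. Dexamethasone arrays lay 3.11-fold above incubated arrays. The smaller step from culture alone was 1.39-fold up (0.44 ± 0.077, adjusted p = 1.94e-04), and dexamethasone stood 4.33-fold above fresh arrays (2.01, adjusted p = 1.23e-10). Ampd3 is known as the isoform of red cells. The 4 erythrocyte markers on the array (Hba-a1, Alas2, Slc4a1 and Epb42) were all under the floor on dexamethasone and on incubated arrays. Their summed signal was 27.2 to 112 with dexamethasone, 138 to 189 on incubated arrays and 2945 to 3137 on fresh arrays. Hba-a1 and Epb42 were under the floor on fresh arrays as well. The part of red cells in the Ampd3 values was not tested.

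Trim63, also called MuRF1, encodes a ubiquitin ligase of striated muscle that glucocorticoids are known to raise during muscle wasting. It gave 626.0, 712.4 and 602.1 on dexamethasone arrays, against 93.4, 108.7 and 106.0 on incubated arrays and 369.6, 311.9 and 416.6 on fresh arrays. Incubated arrays were lowest, all under the floor, and dexamethasone arrays were highest. The difference with dexamethasone was at least 3.23-fold. Culture lowered Trim63 at least 1.83-fold (-1.56 ± 0.12, adjusted p = 6.92e-08), and dexamethasone arrays exceeded fresh arrays 1.77-fold (0.78, adjusted p = 4.57e-05). All 10 skeletal muscle markers, among them Acta1, Ckm and Myh1, were under the floor on dexamethasone and on incubated arrays, and 4 of them reached it on a fresh array. The summed signal of those markers was 275 to 294 with dexamethasone, 226 to 348 on incubated arrays and 2152 to 2363 on fresh arrays. The part of muscle cells in the Trim63 values was not tested.

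F13a1 encodes the A subunit of coagulation factor XIII, a transglutaminase that cross-links fibrin and is found in platelets and in some tissue macrophages. It gave 592.0, 584.6 and 652.3 on dexamethasone arrays, against 110.4, 82.1 and 103.4 on incubated arrays and 275.6, 256.3 and 252.9 on fresh arrays. The order of the groups was that of Trim63. Dexamethasone arrays were at least 3.05-fold above incubated arrays and 2.33-fold above fresh arrays (1.13, adjusted p = 7.95e-07). Culture lowered the gene at least 1.31-fold (-1.17 ± 0.11, adjusted p = 5.82e-07).

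Macrophage markers went both ways beside F13a1, and platelet markers went opposite to it. Of 10 tested macrophage markers, 4 were called higher with dexamethasone, 2 lower and 4 did not pass. Complement genes C1qb (0.93 ± 0.076, adjusted p = 1.02e-06) and C1qa (0.61 ± 0.11) and the receptor gene Csf1r (0.44 ± 0.064) were higher, and the pan-leukocyte gene Ptprc (-0.93 ± 0.10) and Adgre1 (-0.88 ± 0.096) were lower, on the log2 scale. The summed signal of 16 macrophage markers was 8375 to 8571 with dexamethasone, 7207 to 7501 on incubated arrays and 6896 to 7180 on fresh arrays. Cd163, Lyve1, Folr2 and Aif1 stayed under the floor in all groups. All 3 tested platelet markers, of 7 on the array, were called lower with dexamethasone, Pf4 by -1.57, Ppbp by -1.30 at signals under the floor and Itga2b by -0.28 on the log2 scale. The summed signal of the 7 was 520 to 642 with dexamethasone, 996 to 1154 on incubated arrays and 2165 to 2303 on fresh arrays. The part of either cell type in the F13a1 difference was not tested.

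Vegfd encodes a growth factor that acts on a receptor of lymphatic endothelium. The probe set that stands for it gave 314.6, 294.5 and 254.1 on dexamethasone arrays, against 42.3, 27.6 and 13.5 on incubated arrays and 106.8, 80.9 and 106.4 on fresh arrays. All 3 of its probe sets were above the floor on every dexamethasone array and under it on every other array, so its difference with dexamethasone is at least 1.38-fold to 1.44-fold, depending on the probe set. The probe sets went different ways in culture. This one was called lower on incubated than on fresh arrays (adjusted p = 9.73e-05), another was called higher (0.58, adjusted p = 0.0121) and the third did not pass (0.20, adjusted p = 0.214). All these signals lay under the floor, so the direction of Vegfd in culture is not settled. Of 9 endothelial markers, 8 were under the floor on all dexamethasone and all incubated arrays, among them Pecam1 and Cdh5. Emcn, the exception, averaged 914 ± 75.5 with dexamethasone and 876 ± 7.85 on incubated arrays. It was the only endothelial marker to pass the filter on low signals. Pecam1, Cdh5, Tie1, Esam and Vwf were under the floor on all fresh arrays as well, so their signals cannot tell the groups apart. The part of endothelial cells in the Vegfd values was not tested.

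Map3k6 encodes ASK2, a kinase that works with its paralog ASK1 at the top of stress-activated kinase cascades. It gave 442.6, 452.0 and 465.9 on dexamethasone arrays, against 139.4, 159.2 and 216.1 on incubated arrays and 144.4, 120.8 and 173.6 on fresh arrays. Dexamethasone arrays lay 2.64-fold above incubated arrays, of which 1 of 3 reached the floor, and incubated and fresh arrays overlapped (0.18 ± 0.15, adjusted p = 0.272). The small difference between those groups passed the test with quantile normalization (0.49, adjusted p = 0.00799) and with both other scalings. Against fresh arrays dexamethasone arrays were higher at least 2.27-fold (1.46, adjusted p = 1.25e-06). The probe set passed the filter only through the dexamethasone arrays, so it had to differ there and nothing is read from that p.

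**Figure D3:**
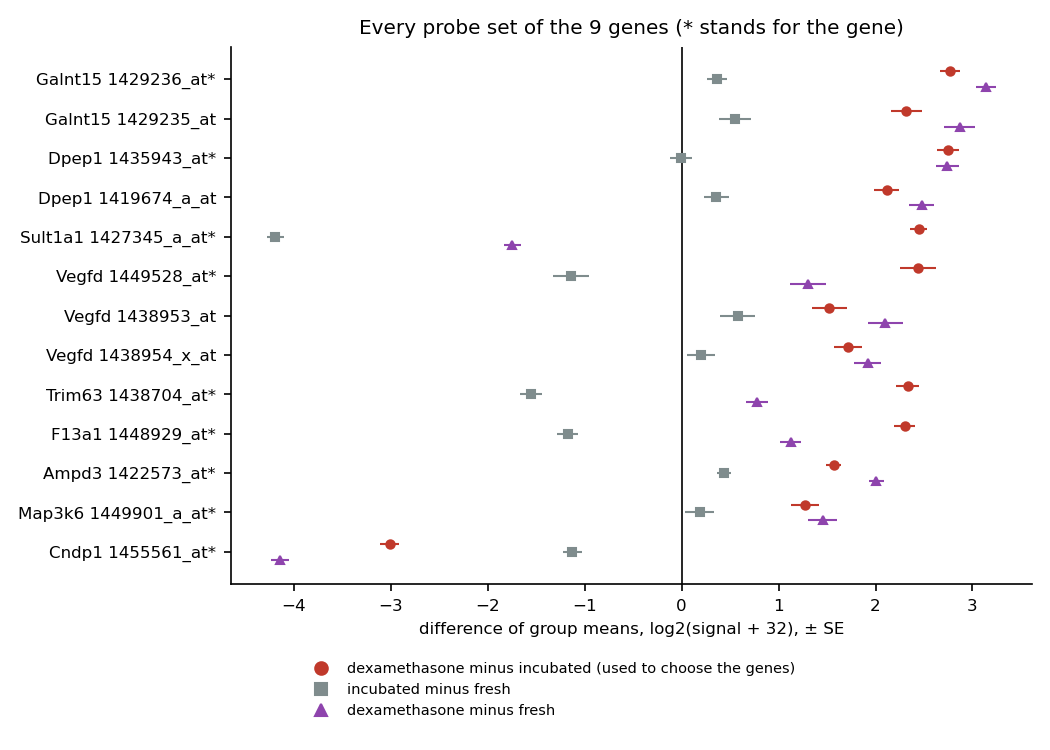
Differences of group means in log2(signal + 32) for each of the 13 probe sets of the 9 genes (points, bars ± SE from limma, n = 3 per group), with an asterisk at the probe set that stands for the gene. The 3 Vegfd probe sets are all positive for dexamethasone minus incubated but lie on both sides of 0 for incubated minus fresh.

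For each member the tested genes with the nearest profile were found by the Euclidean distance over 9 arrays between log2 values centred on their mean. Dpep1 and Galnt15 were each other's nearest gene (distance 0.83), followed for Dpep1 by Dlk2, a gene of the Delta-like family, and for Galnt15 by the inhibitor of differentiation Id1. F13a1 was nearest to Trim63, with the receptor chaperone gene Fkbp5 next (0.80), and Vegfd's nearest gene was F13a1 (0.68), followed by the cytokine gene Il34. F13a1 itself lay closest to the small GTPase gene Rhoj (0.62) and then to Vegfd. Sult1a1 was followed by Map7d2 and the carbonic anhydrase gene Car14 (0.98 and 1.02), Cndp1 by the bicarbonate transporter gene Slc4a10 (0.93) and the metalloproteinase gene Mmp9, Ampd3 by Csnk2a1, a subunit of casein kinase 2, and Id1, and Map3k6 by Sh2d6 and the non-muscle myosin gene Myh9. Slc4a10 averaged 161 ± 24.3 on dexamethasone arrays, 1315 ± 111 on incubated arrays and 2306 ± 107 on fresh arrays, in the same order as Cndp1. Car14 averaged 398 ± 33.0 on dexamethasone arrays, 89.4 ± 20.7 on incubated arrays and 2266 ± 40.4 on fresh arrays, the order of Sult1a1.

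Genes related to the members by role were then compared between dexamethasone and incubated arrays, leaving the members out. Over all 9 lists, 34 of 125 tested genes were called higher and 37 lower, 56.8% in all against the 50.9% of all tested genes, and their median was 0.012 against -0.030 for all genes. The split depended on the scaling, with 9 higher and 94 lower when arrays were scaled to their hybridization controls, which lowered the median of all probe sets to -0.46. Small rises below are named with that in mind.

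Around Dpep1, 4 of 11 tested genes of leukotriene and glutathione metabolism rose, 3 fell and 4 did not pass (median 0.072). Alox5ap, which presents arachidonic acid to 5-lipoxygenase at the start of leukotriene synthesis, rose 2.26-fold, with 499.6, 475.5 and 522.7 on dexamethasone arrays, against 237.6, 217.8 and 208.8 on incubated arrays (adjusted p = 1.52e-06). Chac1, a cytosolic enzyme that degrades glutathione, rose 2.10-fold (adjusted p = 2.15e-05). The glutathione synthesis genes Gclc (0.92 ± 0.053) and Gclm (0.48 ± 0.063) rose too (adjusted p at most 4.30e-05), though Gclm turned to -0.0024 with hybridization-control scaling. Other genes of synthesis and breakdown went the opposite way. Gss (-0.52, adjusted p = 0.00118), Chac2 (-0.60, adjusted p = 0.00135) and Lap3 (-0.30, adjusted p = 0.0221) were called lower. The paralog Dpep3 never exceeded a signal of 29.9.

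Around Cndp1, 3 of 12 genes of carnosine and small peptide handling rose and 5 fell (median -0.082). Slc15a2, a proton-coupled carrier of di- and tripeptides that also takes up carnosine, gave 1667.2, 1524.6 and 1703.3 on dexamethasone arrays, against 3837.6, 3577.1 and 3792.2 on incubated arrays. It fell 2.29-fold (adjusted p = 1.52e-08), by each of its 3 probe sets. Slc15a3, a lysosomal carrier of the same family, fell at least 1.5-fold, to signals under the floor (adjusted p = 1.05e-06). The membrane peptidase gene Dpp4 fell 1.70-fold and the prolidase gene Pepd fell 1.58-fold (adjusted p at most 2.93e-07). Of the 4 probe sets of Dpp4, 3 were called lower, and the other lay at 0.12 without a call.

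Around Galnt15, none of 12 O-glycosylation genes rose, 4 fell and 8 did not pass (median -0.033). Galnt12, a transferase of the same family, gave 140.5, 117.2 and 161.0 on dexamethasone arrays, against 404.2, 328.6 and 329.3 on incubated arrays, a fall of at least 1.77-fold (adjusted p = 1.55e-05). Galnt3 (-0.42 ± 0.048), Galnt11 (-0.46 ± 0.069) and the chaperone gene C1galt1c1 (-0.43 ± 0.048) also fell (adjusted p at most 1.35e-04). Galnt1 (0.13), Galnt2 (0.17), Galnt4 (0.0052), Galnt7 (-0.12) and Galnt10 (0.012) did not pass by the probe set that stands for each gene, with adjusted p of at least 0.0585. Other probe sets of Galnt2, Galnt7 and Galnt10 were called lower. With hybridization-control scaling Galnt1, Galnt2, Galnt4 and Galnt10 turned negative, and Galnt7 was called lower with it and with median centring. Galnt1 was called higher with quantile normalization (0.17, adjusted p = 0.0214) and without fresh array C or incubated array A, and Galnt2 without dexamethasone array A (0.28, adjusted p = 0.00997).

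Around Sult1a1, 4 of 11 sulfate transfer genes rose and 4 fell (median 0.15). Sult5a1, another sulfotransferase, gave 331.0, 304.2 and 310.1 on dexamethasone arrays, against 94.8, 103.0 and 126.7 on incubated arrays and 534.1, 583.5 and 583.8 on fresh arrays. Like Sult1a1 it was lowest after culture alone, and its rise with dexamethasone was at least 1.58-fold (adjusted p = 9.55e-07). The enzymes that make the sulfate donor PAPS moved in opposite directions. Papss1 fell 1.54-fold (adjusted p = 1.87e-07) and Papss2 rose 1.39-fold (adjusted p = 7.03e-05), although hybridization-control scaling turned Papss2 to -0.016. Bpnt2 (0.47, adjusted p = 2.45e-04), a phosphatase that breaks down the product of PAPS, rose by 1 of its 3 probe sets. The same scaling turned that probe set to -0.018, and the lowest of the 3 lay at -0.13 without a call. The remaining gene called higher, Sult4a1, had means of 47.3 on dexamethasone and 7.33 on incubated arrays, both under the floor. Sult1b1, Sult1c1, Sult1c2, Sult1d1, Sult1e1, Sult2b1 and Sult6b1 never exceeded 97.6.

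Around Ampd3, 1 of 16 purine nucleotide genes rose and 6 fell (median -0.10). Ampd2, a second AMP deaminase gene, gave 1376.6, 1577.6 and 1516.9 on dexamethasone arrays, against 3870.4, 3868.9 and 4231.6 on incubated arrays. It fell 2.68-fold (-1.40 ± 0.062, adjusted p = 7.51e-09), and its second probe set fell as well (-0.60), while Ampd3 went the other way. The probe set that stands for Ampd2 is of the x_at type, which may hybridize to related transcripts. Ampd1 never exceeded 27.6. Gmps, which makes GMP, rose 2.01-fold (adjusted p = 2.45e-06) by that probe set and another, and 1 more was called lower. The adenylate kinase gene Ak1 fell 1.58-fold and Adssl1, which turns IMP toward AMP, fell at least 1.26-fold (adjusted p at most 3.94e-04).

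**Figure D4:**
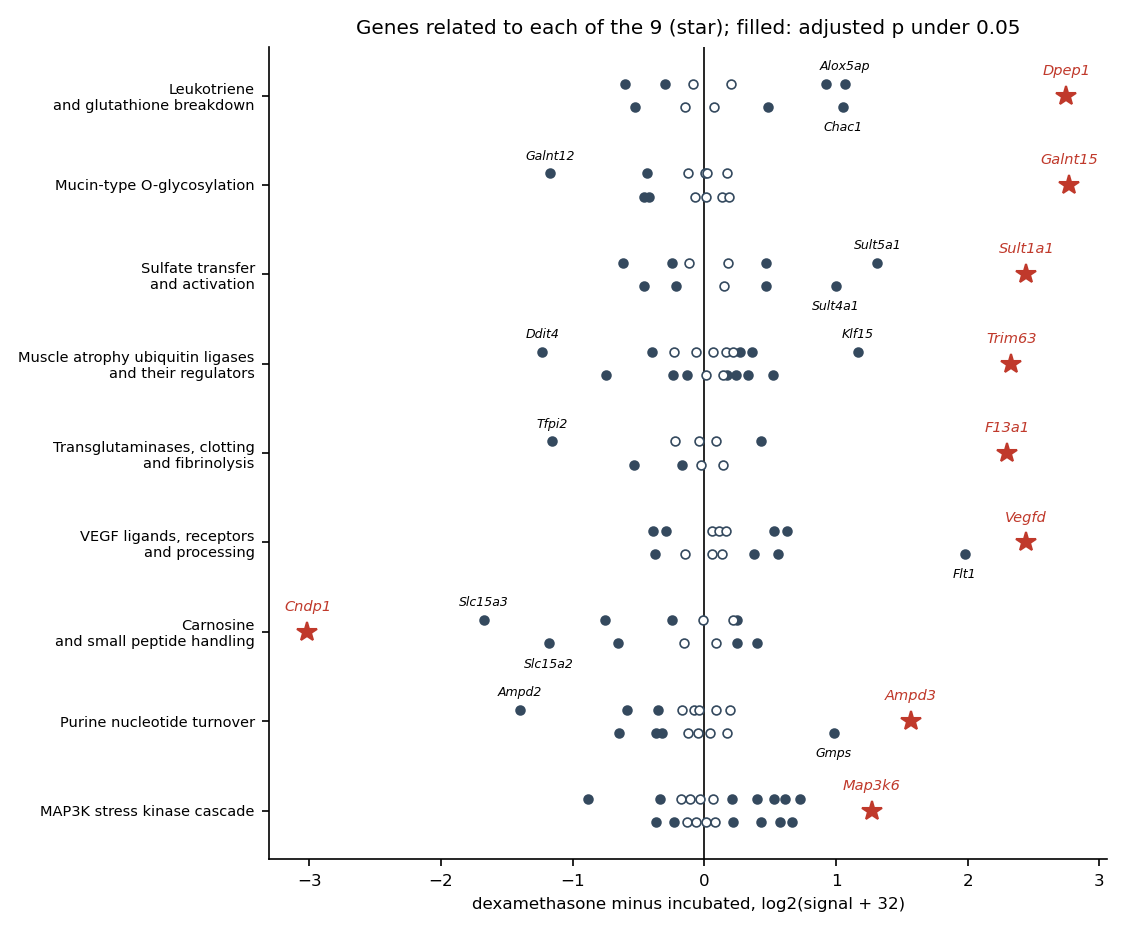
Difference of group means, dexamethasone minus incubated, in log2(signal + 32), for the tested genes of the list around each member (circles, filled where the adjusted p was under 0.05), with the member as a star. Ampd2 (-1.40) lies opposite Ampd3 (1.57), Galnt12 (-1.17) opposite Galnt15 (2.77), and Flt1 (1.98) beside Vegfd (2.44).

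Around Trim63, 7 of 19 genes of muscle wasting and its control rose, 5 fell and 7 did not pass (median 0.14). Klf15, a transcription factor and receptor target, gave 1341.4, 1255.4 and 1406.5 on dexamethasone arrays, against 579.3, 626.6 and 526.3 on incubated arrays, a 2.31-fold rise (adjusted p = 8.32e-08). Fbxo32, the other ubiquitin ligase gene best known from muscle wasting, rose only 1.27-fold (0.33 ± 0.061, adjusted p = 6.37e-04). Its second probe set was called lower (-0.33), and hybridization-control scaling turned the first to -0.15. Ddit4, an inhibitor of mTOR signalling that glucocorticoids raise in muscle, fell 2.40-fold, with 603.7, 729.9 and 778.9 on dexamethasone arrays, against 1745.7, 1614.8 and 1699.1 on incubated arrays (adjusted p = 2.04e-07). Fbxo31 fell at least 1.5-fold by 1 of its 2 probe sets, the other lying at 0.13 without a call, and the mitophagy gene Bnip3 fell by 0.40 on the log2 scale (adjusted p at most 1.46e-04). Trim54, a close relative of Trim63, never exceeded 118.8.

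Around F13a1, 9 of 29 clotting and transglutaminase genes on the array could be tested, of which 1 rose and 3 fell (median -0.042). Tgm2, the tissue transglutaminase gene, averaged 9712 ± 328 on dexamethasone arrays and 7221 ± 667 on incubated arrays and rose by all 4 probe sets (0.43 ± 0.065, adjusted p = 1.40e-04), although hybridization-control scaling turned it to -0.060. Tfpi2, an inhibitor of serine proteases, fell 2.32-fold (-1.15 ± 0.19, adjusted p = 2.43e-04), a call that ended with a pseudocount of 1 (adjusted p = 0.0739). The plasminogen activator gene Plat fell 1.45-fold (adjusted p = 1.76e-05) and the thrombin receptor gene F2r fell 1.12-fold (adjusted p = 0.00395). F13b, the gene of the B subunit that carries factor XIII in plasma, never exceeded 14.9.

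Around Vegfd, 5 of 14 VEGF pathway genes rose, 3 fell and 6 did not pass (median 0.12). Flt1, which encodes a receptor of the related ligand Vegfa, gave 1430.1, 1238.0 and 1413.8 on dexamethasone arrays, against 312.6, 369.2 and 286.1 on incubated arrays and 302.5, 260.8 and 341.2 on fresh arrays. It rose 4.22-fold (1.98 ± 0.11, adjusted p = 4.93e-08), by each of its 3 probe sets. The receptor gene Kdr rose 1.59-fold (adjusted p = 6.40e-05), and so did Ccbe1 (1.53-fold, adjusted p = 3.14e-04), which helps to process Vegfc. Neither passed with hybridization-control scaling, which also turned the co-receptor gene Nrp2 (0.37, adjusted p = 5.29e-04) negative. The ligand genes Vegfa (-0.39 ± 0.11, adjusted p = 0.0108) and Vegfc (-0.29 ± 0.081, adjusted p = 0.00933) fell, and the call for Vegfa ended without incubated array B (-0.31, adjusted p = 0.0511). Both genes also had a probe set that did not pass and lay above 0 (0.13 for Vegfa, 0.15 for Vegfc). Vegfb did not pass (0.061, adjusted p = 0.461). The co-receptor gene Nrp1 fell (-0.37 ± 0.11, adjusted p = 0.0106). The remaining gene called higher, Pcsk5, had means of 109 on dexamethasone and 63.6 on incubated arrays, both under the floor. Flt4, the gene of the lymphatic receptor, was not among the 14 tested genes.

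Around Map3k6, 9 of 21 stress kinase genes rose and 4 fell (median 0.063). The kinase genes Map3k10 (0.73 ± 0.10), Map3k3 (0.61 ± 0.082) and Map3k20 (0.57 ± 0.056) rose, as did Dusp1 (0.66 ± 0.062), a phosphatase gene and receptor target that turns off these cascades (adjusted p at most 1.03e-04). Another probe set of Map3k20 was called lower (-0.43), and with hybridization-control scaling Map3k3, Map3k20 and Dusp1 no longer passed. Map3k5, the gene of ASK1, averaged 1564 ± 60.5 on dexamethasone arrays and 1477 ± 50.7 on incubated arrays and did not pass (0.080 ± 0.055, adjusted p = 0.237).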

How the data were processed

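Signals came from 9 Affymetrix expression arrays of 45101 probe sets. The deposited values are linear signal intensities of probe sets, brought by the authors to a common target of 500 on every array, per the labels. Per the labels' protocols, RNA went through 2 rounds of amplification. The software that summarised probes is not given in the sources used here.

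Probe sets were named through the platform annotation (34945 with 1 symbol, 932 with several), and symbols were checked against RefSeq genes (GRCm38.p6). Those with a signal of 200 or more on at least 3 of 9 arrays were tested, 64 control probe sets apart. In limma 3.58.1 (R 4.3.3), log2(signal + 32) of the 9 arrays was modelled by a mean for each group, with eBayes and an intensity trend, and differences were called at a Benjamini-Hochberg adjusted p under 0.05. Each gene was represented by its tested probe set with the highest mean. The fit was tested on simulated data. Tables and figures used Python 3.11.15, pandas 2.3.3, NumPy 2.4.6 and matplotlib 3.10.9. Members, lists and tests were chosen with earlier results of these data known, and the promoter motifs with the Trim63 sequence in view. Named genes were the members, their paralogs, up to 4 called genes per list with the smallest adjusted p, the 2 nearest profiles per member and neighbours in rank. The genes that fell around Dpep1, and Nrp1 and Pcsk5 around Vegfd, were named besides these. Of the genes listed, 310 matched the annotation as written, 3 through another symbol, and 25 had no probe set of their own. Groups share replicate letters, but same-lettered arrays did not deviate together (r of -0.062 to 0.16), so arrays were not paired.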

Additional observations from a re-analysis of the deposited data

How the results depend on the processing

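Every member kept its direction with dexamethasone against incubated arrays and against fresh arrays under all alternatives run: 3 scalings, 2 pseudocounts, 3 filters, eBayes without the trend, the 2 groups alone, the mean over a gene's probe sets, the replicate block and each array left out. The members were chosen on the first of these differences, and the second shares the dexamethasone arrays, so nothing is read from the kept directions. Sizes against incubated arrays moved. With hybridization-control scaling Map3k6 went from 1.27 to 0.84, Ampd3 from 1.57 to 1.10, Dpep1 from 2.75 to 2.28 and Cndp1 from -3.01 to -3.47. Vegfd had no value at a filter of 400. Changes of direction or call arose in incubated against fresh arrays. There the Dpep1 value of -0.0066 became 0.30 with hybridization-control scaling and 0.39 with median centring, both past the test, 0.18 with quantile normalization, 0.18 as the mean of its probe sets, and ranged over -0.12 to 0.11 with single arrays left out, positive without fresh array B (0.026) or C (0.076) or incubated array B (0.11). Map3k6 passed there with all 3 scalings (0.47 to 0.55). With the replicate letter as a block, 7 members were called for incubated and 9 for dexamethasone against fresh arrays, and 72 related genes with dexamethasone; it changed none of the calls of members.

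Scaling decided the split of calls. With dexamethasone against incubated arrays, 5116 probe sets were higher and 4820 lower, against 1260 and 13572 with hybridization-control scaling and 3130 and 7696 with median centring. For incubated against fresh arrays 6620 were higher and 7593 lower, against 9942 and 4274 with hybridization-control scaling, 11232 and 3613 with median centring, and 11518 lower with no filter. Median centring gave 4686 lower probe sets for dexamethasone against fresh arrays. These scalings moved the median of all probe sets with dexamethasone to -0.46 and -0.15 and in culture to 0.28 and 0.39. The related genes gave 9 rises and 94 falls with hybridization-control scaling. It also turned Bpnt2 (-0.018), Papss2 (-0.016), Gclm (-0.0024), Tgm2 (-0.060), Nrp2 (-0.10), Fbxo32 (-0.15), Galnt2 (-0.31), Galnt1 (-0.35), Map3k5 (-0.40), Vegfb (-0.41), Galnt10 (-0.47) and Galnt4 (-0.47). Median centring turned Galnt1 (-0.026), Map3k5 (-0.077), Vegfb (-0.092), Galnt10 (-0.14) and Galnt4 (-0.15). With single arrays left out, Cndp2 ranged over -0.11 to 0.054, Galnt4 over -0.023 to 0.046 and Galnt10 over -0.084 to 0.067, and none of them passed the test. The cause of these changes was not tested. Signals under 200 limit Vegfd, Galnt15 and Map3k6 outside the dexamethasone arrays, and 3 arrays per group from pooled tissue limit every value.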
